A study of Macaca fascicularis with 605 samples.

Results

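Epiblast cells of cynomolgus monkey embryos at embryonic days (E) 16 and 17 were compared with epiblast cells at E13 and E14. The cells were chosen by the levels of 4 genes, in RPM, the deposited read count of a gene scaled by the reads of its cell. A cell was kept with POU5F1 at 200 RPM or more, SOX2 at 50 RPM or more, and T and SOX17 each under 20 RPM. This gate kept 56 early and 65 late cells, of 379 cells at these 4 days and 605 in the series. The early stage held 31 cells at E13 (27.4% of that day's cells) and 25 at E14 (64.1%). The late stage held 39 cells at E16 (22.8%) and 26 at E17 (46.4%). All came from untreated embryos recovered after implantation. The labels' protocols state that a fragment with epiblast, amnion, hypoblast and yolk sac endoderm was cut out by hand from the implantation site and dissociated with trypsin. Each cell was measured by SC3-seq, a single-cell RNA method that reads only the 3-prime ends of transcripts. Epiblast cells of E06 to E09 that passed the same gate (48 cells) and 28 embryonic stem cells (ESCs) served as points of comparison. The ESCs were 8 cells of 656BTAG, a reporter line kept with bFGF and the inhibitor IWR1, and 13 of CMK6 and 7 of CMK9, both kept on mouse feeders with LIF and bFGF. All of the ESCs passed the gate.

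The epiblast is the pluripotent tissue of the embryo, from which the body and the germ line arise. Before implantation its cells hold a naive-like set of factors together with many transcripts typical of the oocyte and the cleaving embryo. After implantation they form an epithelial disc, lose much of that set and become ready for signals of the primitive streak and of the forebrain field. POU5F1 and SOX2 are held through this transition, while factors such as KLF4, DPPA5 and DNMT3L are linked to the earlier state and OTX2 and the ZIC genes to the later one.

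The labels name no embryo, so the cells of a day were averaged and the day was the unit of every test, with 2 days per stage. The p-values measure only the spread between these days, which are also different ages. Limma draws the spread of each gene towards that of genes of similar level, so its p-values do not rest on that gene's days alone. With 2 days against 2, an exact permutation test of a single gene cannot go below p = 0.333. Read depth was 348440 to 4132059 per gated cell, with day medians of 1388813, 2341616, 2034118 and 2038869 reads at E13, E14, E16 and E17. The median number of genes above 0 was 9118, 9584, 10165 and 9397. The gate had wide margins for SOX17 (2.29 RPM just inside and 31.72 just outside) and POU5F1 (243.06 inside and 15.8 outside), and narrow ones for SOX2 (69.94 and 41.44) and T (18.47 and 24.51). The gate genes are not reported as results.

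The label was checked against markers outside the gate. NANOG, a core pluripotency factor, was above 0 in every gated cell of both stages, at 35.72 RPM or more. None of the 12 endoderm markers measured, GATA6 and FOXA2 among them, passed the filter of 10 RPM in 2 day means. They were not absent, since the highest day mean among them was 35.8 RPM and CER1 averaged 24.9 RPM at E17. At E16 and at E17, 1 cell each held at least 3 of them at 50 RPM or more. Some cells also held markers of another type. A total of 24 cells held at least 3 markers of 1 other type at 50 RPM or more, 4 at E13, 3 at E14, 14 at E16 and 3 at E17. The excess at E16 came with extraembryonic mesenchyme markers, which 10 of 39 cells carried, against 0, 1 and 1 cells at E13, E14 and E17. The summed level of that list reached 46327 RPM in 1 E16 cell, and 673.68, 555.74 and 999.58 RPM in the highest cells of E13, E14 and E17. Among the genes named here, LUM and NID2 could not be tested without these 24 cells, NANOG was no longer called, and EOMES, FST and BMP4 were called, with the values given beside each.

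Of 8353 genes tested, 181 (2.17%) differed between the stages at an adjusted p under 0.05. In late cells 74 genes (0.886%) were higher, and the other called genes (1.28% of those tested) were lower. Genes were tested on log2(mean RPM + 1) if 2 of the 4 day means reached 10 RPM, and the median log2 change of all tested genes was 0.04. The log2 changes of called genes had sizes of 0.77 to 4.75 among those higher, with a median of 1.68, and of 0.90 to 6.96 among those lower, with a median of 1.998. For 172 of the 181 the largest step between neighbouring days fell between E14 and E16 (95.03%, against 37.1% of all tested genes). Called genes were chosen for a difference between the stages, and that gap spans 2 days, so this share follows in part from the choice. A strict order over the 4 days was seen in 54 called genes (29.8%, against 12.2% of all tested genes). This order requires day means that do not overlap between the stages, which all 181 called genes had. Of all tested genes 3822 (45.8%) had such means, and 1015 of these were in strict order. The 12.2% is therefore not a like baseline. Among the called genes, 26 of those higher had an early mean under 10 RPM and 36 of those lower a late mean under 10 RPM. Such genes passed the filter only through the stage where they were high and had to differ. Among the genes named here they were LUM, NID2 and OTX2 of those higher. Of those lower they were NLRP7, OOEP, DNMT3L, VENTX, PRRG1, KLF4, KLF5, GBX2, WNT5B, KRT7 and DPPA3. The count of calls was 53 without E13, 32 without E14 and 83 without E17, and 1.94% of the genes tested were called without E16. At an unadjusted p under 0.05 there were 1268 genes (15.2%), with 8.46% higher and 6.72% lower in late cells.

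**Figure D1:**
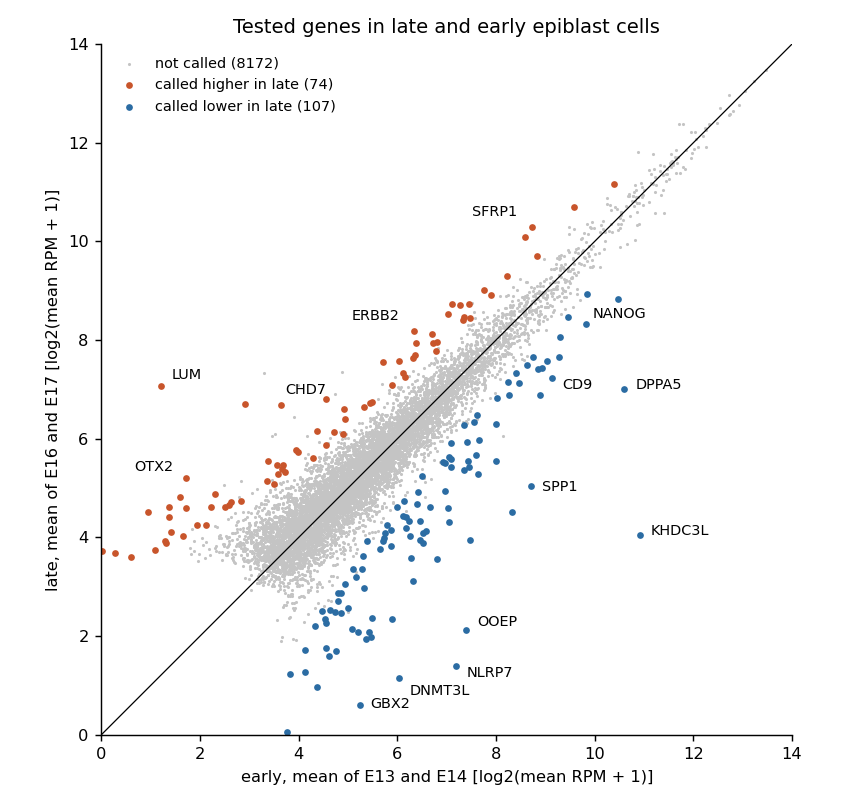
Each point is 1 of the 8353 tested genes, with the mean of E13 and E14 on the x axis and the mean of E16 and E17 on the y axis, both as log2(mean RPM + 1). The genes lower in late cells lie below the line of equal level and include KHDC3L, DPPA5 and OOEP far from it, and the 74 genes higher in late cells include CHD7, ERBB2 and OTX2.

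KHDC3L, NLRP7 and OOEP had the largest falls among the genes named here, and all 3 are known from the oocyte and early embryo. KHDC3L, OOEP and DPPA5 belong to 1 family of genes with a KH domain, and KHDC3L and OOEP encode parts of the subcortical maternal complex of the oocyte and zygote. KHDC3L had day means of 2582 RPM at E13, 1298 at E14, 23.4 at E16 and 7.84 at E17. Its level by cell was 218.6 to 6927 RPM at E13 (median 2957) and 227.8 to 2928 at E14 (median 1266). It was 0 to 159.9 RPM at E16 (median 7.11) and 0 to 96.1 at E17 (median 0.56). Thus the highest late cell was below the lowest early cell, and 12 of 26 cells at E17 held no KHDC3L read. The log2 change was -6.96 ± 0.42 (SE; limma, adjusted p = 3.56e-06).

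DPPA5, which encodes an RNA-binding protein of pluripotent cells, averaged 1618 and 1488 RPM at E13 and E14 and 168.4 and 86.2 at E16 and E17. Every early cell held at least 407 RPM of it, and the highest late cell held 634 RPM, so that a few cells overlapped. DPPA5 fell by 3.68 ± 0.28 (SE) on the log2 scale (limma, adjusted p = 1.88e-05). It was still at 10 RPM or more in 38 of 39 cells at E16 and 25 of 26 at E17, unlike KHDC3L at 18 and 3 cells. OOEP averaged 154.9, 180.1, 4.71 and 1.997 RPM over the 4 days, and its log2 change was -5.34 ± 0.37 (SE; limma, adjusted p = 1.12e-05). At E14 its cells were spread widely, from 0.51 to 703.8 RPM, with 17 of 25 at 10 RPM or more.

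NLRP7 and NLRP2 encode proteins of the NLR family with maternal roles in the early embryo, and both fell over more than 1 step. NLRP7 averaged 259.8 RPM at E13, 29.2 at E14, 3.08 at E16 and 0.16 at E17. It was 1 of the genes with a large step already between E13 and E14, and in E17 no cell reached 10 RPM. NLRP2 averaged 428, 210.8, 39.7 and 3.96 RPM, and 26 of 39 cells at E16 still held 10 RPM or more against 4 of 26 at E17. The log2 changes were -5.35 ± 0.81 for NLRP7 and -4.41 ± 0.68 for NLRP2 (SE; limma, adjusted p = 0.0049 and 0.00565). The call of NLRP2 was lost without E13 and without E14 (limma, adjusted p = 0.084 and 0.063). KHDC3L, NLRP7 and NLRP2 thus fell in strict order over the 4 days, while OOEP was slightly higher at E14 than at E13.

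A list of pre-implantation pluripotency holds KHDC3L, DPPA5 and NLRP7 beside transcription factors and cofactors. Of its 23 measured genes 13 were tested and 9 were called lower, with none higher, beside 1.28% of all tested genes called lower. Of the 9, KLF4, KLF5, DNMT3L, VENTX, DPPA3 and NLRP7 passed the filter only through the early stage and had to differ, so the count of 9 is no support. Of the other 7 tested members 3 were called lower, KHDC3L, DPPA5 and TRIM60. KLF4 averaged 33.03 and 38.5 RPM early and 2.18 and 4.28 late (-3.16 ± 0.43, SE), with 19 and 15 cells at 10 RPM or more early and 2 and 4 late. KLF5, a related zinc finger factor, averaged 17.6, 29.7, 0.68 and 3.37 RPM. DNMT3L, the cofactor of de novo DNA methylation, averaged 80.1, 48.3, 1.28 and 1.14 RPM and was at 0 in 30 of 39 cells at E16 and 24 of 26 at E17. VENTX, a homeobox gene, averaged 82.1, 34.5, 2.54 and 5.63 RPM (-3.49 ± 0.48, SE). DPPA3, a maternal factor also used as a germ cell marker, averaged 48.1, 39.4, 4.18 and 4.07 RPM (-3.12 ± 0.38, SE). TRIM60 fell less, with 117.4, 152.01, 57.4 and 26.4 RPM. The adjusted p-values of these 6 genes lay between 9.69e-05 for DNMT3L and 0.0188 for TRIM60 (limma). For all except TRIM60 the filter had already set the direction. The call of TRIM60 was lost without E13, without E14 and without E17 (limma, adjusted p = 0.083, 0.18 and 0.14). Among the members not called, FGF4 averaged 45.6, 39.02, 18.1 and 20.9 RPM and GDF3 131.9, 79.6, 49.1 and 69.2 RPM.

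The core of pluripotency changed in part. Of 13 tested genes of that list, 3 fell and none rose, beside 1.28% and 0.886% of all tested genes, with a median log2 change of -0.71 against 0.04. NANOG averaged 647 and 749.9 RPM early and 378 and 331 late, a fall by 0.97 ± 0.20 (SE) on the log2 scale (limma, adjusted p = 0.0236). Cells of both stages overlapped widely, at 108.9 to 1488 RPM in early and 35.72 to 809 in late cells. PRDM14, a repressor that guards pluripotency and the germ line, averaged 112.9, 157.5, 63.5 and 30.4 RPM (-1.58 ± 0.34, SE; limma, adjusted p = 0.028). DPPA2, a chromatin factor of early embryos, averaged 118.9, 122.8, 49.8 and 40.1 RPM (-1.41 ± 0.26, SE; limma, adjusted p = 0.0136). Its partner DPPA4 averaged 327, 424, 229.6 and 154.1 RPM and was not called (limma, adjusted p = 0.0675). LIN28A, which binds let-7 precursors, averaged 1787, 1657, 1863 and 1723 RPM (0.06 ± 0.18, SE), and SALL4 averaged 234.2, 198.2, 257 and 221.9 RPM (0.15 ± 0.22, SE). For both, the days of the stages overlapped. The calls of NANOG, PRDM14 and DPPA2 were each lost without E13, without E14 and without E17, with limma adjusted p-values of 0.084 to 0.25, and were kept without E16. NANOG also lost its call without the 24 cells with other markers (limma, adjusted p = 0.0511). With the title code as a term PRDM14 was not called and its log2 change turned to 0.258 (limma, adjusted p = 0.837).

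**Figure D2:**
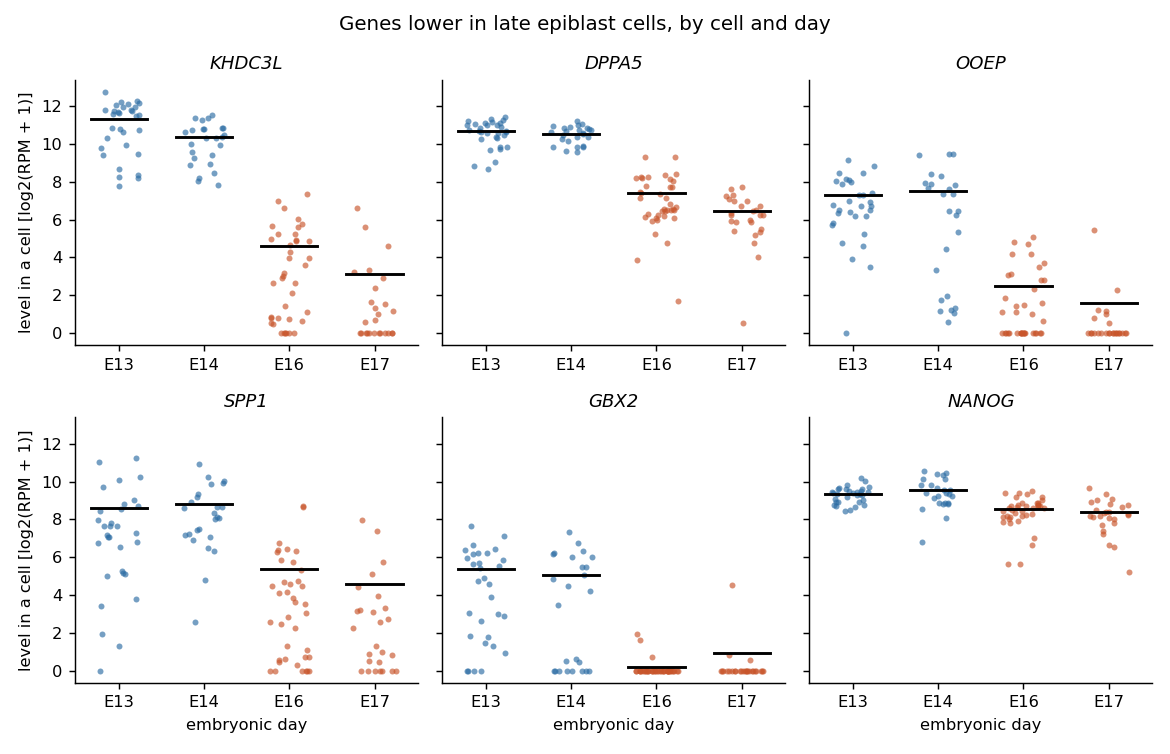
Levels of KHDC3L, DPPA5, OOEP, SPP1, GBX2 and NANOG in the 56 early and 65 late cells by embryonic day, as log2(RPM + 1) of each cell. Points are cells and black lines are log2(mean RPM + 1) of the day. No late cell reached the lowest early cell for KHDC3L, whereas NANOG cells of both stages overlapped.

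SPP1, the secreted matrix protein osteopontin, averaged 383, 450.2, 41.2 and 22.7 RPM (-3.72 ± 0.29, SE; limma, adjusted p = 2.5e-05). In early cells it ranged from 0 to 2449 RPM and varied more than KHDC3L relative to the day mean, though not in absolute level. Among late cells, 3 at E16 and 2 at E17 held 100 RPM or more. H1-2, a linker histone, averaged 109.8 and 111.4 RPM early and 10.5 and 11.2 late (-3.23 ± 0.30, SE). PRRG1, a membrane protein with a Gla domain, averaged 67.05, 91.3, 8.19 and 7.04 RPM. CMBL, a hydrolase, averaged 85.6, 67.9, 11.4 and 10.6 RPM, and CRIP1, a small LIM domain protein, 170.7, 90.3, 17.7 and 19.9 RPM. The log2 changes of these 3 were -3.21 ± 0.33, -2.69 ± 0.32 and -2.66 ± 0.33 (SE), with limma adjusted p-values of 0.000299, 0.00085 and 0.0013. KRT7, a keratin listed here as an amnion and trophectoderm marker, was lower in late cells too, at 29.4, 26.9, 5.36 and 7.37 RPM (-1.997 ± 0.39, SE; limma, adjusted p = 0.0188). Its call was lost without E16 (limma, adjusted p = 0.066).

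A pair of homeobox genes was called in opposite directions. OTX2 passed the filter only through the late stage and GBX2 only through the early stage, so both had to differ. OTX2, which marks the post-implantation epiblast and later the forebrain and midbrain, averaged 3.12 and 1.498 RPM early and 31.6 and 39.7 late (3.51 ± 0.45, SE; limma, adjusted p = 0.00174). It reached 10 RPM in 3 of 31 and 1 of 25 early cells and in 27 of 39 and 16 of 26 late cells. GBX2, known from the hindbrain side of the midbrain boundary and from naive pluripotent cells, averaged 40.6 and 32.8 RPM early and 0.14 and 0.91 late (-4.66 ± 0.51, SE; limma, adjusted p = 0.000488). GBX2 was at 0 in 36 of 39 cells at E16 and 23 of 26 at E17, and 18 of 31 and 14 of 25 early cells held 10 RPM or more. Early cells without GBX2 were 4 at E13 and 8 at E14.

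Of the 33 genes of a list of post-implantation pluripotency, all were tested, 4 rose and 2 fell, beside 0.886% and 1.28% of all tested genes, with a median log2 change of 0.21 against 0.04. The 4 were OTX2, SFRP1, ZIC2 and CYTL1. OTX2 passed the filter only through the late stage and had to differ, so it adds no support to this count. ZIC2, a zinc finger factor of the epiblast and neural plate, averaged 67.8, 95.5, 212.7 and 277 RPM (1.58 ± 0.26, SE; limma, adjusted p = 0.00694). It was at 0 in 9 cells at E13, 3 at E14, 1 at E16 and none at E17, where the lowest cell held 69.35 RPM. Its relative ZIC5 averaged 18.99, 37.97, 64.7 and 60.7 RPM and was not called (limma, adjusted p = 0.106). CYTL1, a small secreted protein, averaged 14.2, 10.1, 33.1 and 45.4 RPM (1.62 ± 0.36, SE; limma, adjusted p = 0.0303). CYTL1 lost its call when any 1 of the 4 days was left out (limma, adjusted p = 0.064 to 0.31), and ZIC2 without E13 and without E17 (limma, adjusted p = 0.08 and 0.072). The 2 that fell were SPP1 and SFRP2. DNMT3B, the de novo methyltransferase of primed pluripotent cells, averaged 2895, 3847, 3311 and 2022 RPM and was not called (limma, adjusted p = 0.506). DNMT3L was the single gene called among 10 tested genes of DNA methylation, beside 2.17% of all tested genes. It passed the filter only through the early stage and had to differ.

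CHD7 and ERBB2 rose with little spread between the days of a stage. CHD7, a chromatin remodeller needed in neural crest, averaged 11.7 and 11.4 RPM early and 94.7 and 108.8 late (3.03 ± 0.30, SE; limma, adjusted p = 0.000203). Its cells were at 0 to 75.5 RPM at E13 (median 0) and 0 to 57.9 at E14 (median 5.95), and at 0 to 304.5 at E16 (median 74.4) and 0.76 to 233.9 at E17 (median 105.2). ERBB2, a receptor of the EGF receptor family, averaged 76.3 and 84.3 RPM early and 294 and 284 late (1.84 ± 0.23, SE; limma, adjusted p = 0.0013). It reached 100 RPM in 10 of 31 and 9 of 25 early cells and in 37 of 39 and 24 of 26 late cells.

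HMGA2, an architectural chromatin protein and let-7 target, averaged 26.4, 18.5, 95.4 and 125.6 RPM (2.26 ± 0.30, SE; limma, adjusted p = 0.00222). Its late cells ranged from 0 to 906 RPM, and the day medians were 1.92, 8.11, 37.7 and 56.1 RPM. SOX4, a transcription factor of progenitor cells, averaged 24.7 and 34.1 RPM early and 95.6 at both late days (1.68 ± 0.29, SE). RHOBTB3 averaged 15.5, 13.3, 55.9 and 51.2 RPM, and ABLIM1, which links LIM domains to actin, 22.2, 17.3, 70.05 and 70.6 RPM. Their log2 changes were 1.83 ± 0.32 and 1.79 ± 0.30 (SE), and limma adjusted p-values of these 3 genes were 0.00837, 0.0095 and 0.00787 in the order given. The calls of RHOBTB3 and ABLIM1 were lost without E14 (limma, adjusted p = 0.079 and 0.076), and that of SOX4 without E13 (limma, adjusted p = 0.072). All 3 were also lost without E17 (limma, adjusted p = 0.057), and RHOBTB3 without E16 (0.06).

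**Figure D3:**
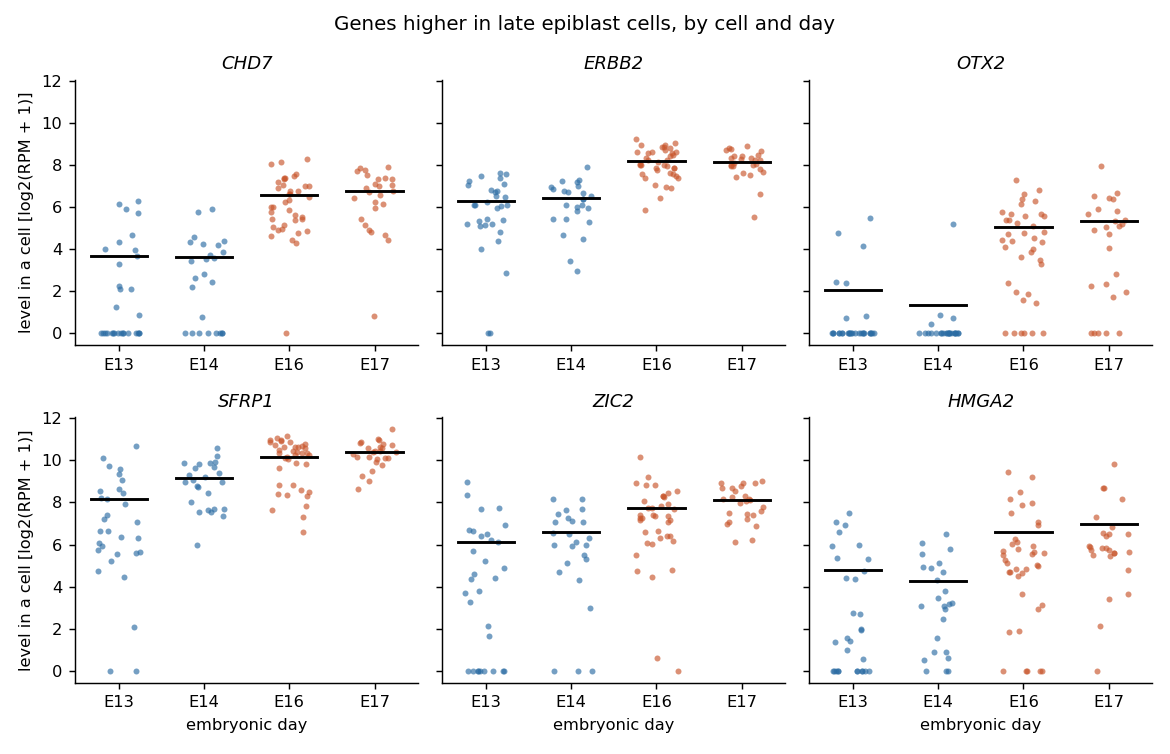
Levels of CHD7, ERBB2, OTX2, SFRP1, ZIC2 and HMGA2 in the 56 early and 65 late cells by embryonic day, as log2(RPM + 1) of each cell. Points are cells and black lines are log2(mean RPM + 1) of the day. CHD7 was at 0 in 16 of 31 cells at E13 and in 1 of 39 at E16, and SFRP1 cells of E13 spread over most of the axis.

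Of 17 tested genes of matrix and integrins, 2 rose (NID2 and ITGB5) and 1 fell (SPP1), beside 0.886% and 1.28% of all tested genes, with a median log2 change of 0.68 against 0.04. NID2, like LUM below, passed the filter only through the late stage and had to differ, so it adds no support to this count. LUM, a collagen-binding proteoglycan and member of the mesenchyme list, averaged 0.54, 2.10, 254 and 12.6 RPM (4.75 ± 0.95, SE; limma, adjusted p = 0.0207). A single E16 cell carried 74.3% of the summed LUM of that day, and the median was 0 at all 4 days. NID2, a basement membrane protein, averaged 5.00, 8.15, 176.6 and 28.5 RPM (3.29 ± 0.62, SE; limma, adjusted p = 0.0153), with 59.8% of the E16 sum in 1 cell. Both calls were lost without E13 and without E14 (limma, adjusted p = 0.105 to 0.159). Without the 24 cells that held markers of other types, LUM and NID2 were too low to be tested. COL3A1, a fibrillar collagen of mesenchyme, averaged 1.34, 7.61, 545 and 5.32 RPM and was not tested. VIM, an intermediate filament of mesenchyme, averaged 18.7, 37.9, 269.5 and 56.4 RPM and was not called, with a log2 change of 2.17 in all cells and 0.47 without the 24 cells. The part of mesenchymal RNA or cells in these values was not tested further.

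COL18A1, a basement membrane collagen, did not follow this pattern. It averaged 49.8, 52.6, 233.8 and 138.9 RPM (1.80 ± 0.29, SE; limma, adjusted p = 0.00597) and its log2 change was 1.75 without those 24 cells. Every late cell held at least 19.8 RPM. ITGB5, an integrin subunit, averaged 84.2, 78.2, 198.2 and 215.3 RPM (1.34 ± 0.23, SE; limma, adjusted p = 0.00988). COL18A1 lost its call without E13, without E14 and without E16 (limma, adjusted p = 0.058, 0.07 and 0.051), and ITGB5 without E13, without E14 and without E17 (limma, adjusted p = 0.061, 0.092 and 0.086). RGS5, a regulator of G protein signalling, was close to the threshold, at 23.4, 6.46, 47.02 and 57.3 RPM (1.97 ± 0.47, SE; limma, adjusted p = 0.0491). A single E17 cell held 66.9% of its sum at that day, and its call was lost without E14 (limma, adjusted p = 0.24), without E16 (0.099) and without E17 (0.25).

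Of the secreted WNT antagonists, SFRP1 rose and SFRP2 fell. SFRP1 averaged 281, 567, 1161 and 1353 RPM, in strict order (1.65 ± 0.28, SE; limma, adjusted p = 0.00827). Its cells ranged from 0 to 1635 RPM at E13 (median 100.1) and from 61.3 to 1544 at E14 (median 496). They ranged from 94.9 to 2272 RPM at E16 (median 1293) and from 400.4 to 2840 at E17 (median 1332). SFRP2 averaged 413, 503, 154.8 and 183.9 RPM (-1.43 ± 0.22, SE; limma, adjusted p = 0.00565). WNT5B, a ligand, averaged 32.1, 23.8, 3.94 and 5.18 RPM (-2.38 ± 0.41, SE; limma, adjusted p = 0.00984). These were the 3 genes called among 17 tested genes of WNT signalling, beside 2.17% of all tested genes, and the median log2 change of the 17 was 0.21. WNT5B passed the filter only through the early stage and had to differ, so it adds no support to this count. SFRP1 lost its call without E13 (limma, adjusted p = 0.097) and SFRP2 without E14 (limma, adjusted p = 0.089).

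The other label markers, USP44 and HESX1, were not called. USP44, a deubiquitinase of pluripotent cells, averaged 160, 210.2, 246 and 394 RPM. Its days did not overlap between the stages, as for 45.8% of all tested genes (0.76 ± 0.26, SE; limma, adjusted p = 0.179). HESX1, a homeobox gene of the anterior neural plate, averaged 39.1 RPM at E13, 141.04 at E14, 43.4 at E16 and 38.5 at E17. It was high at E14 alone, where 12 of 25 cells reached 100 RPM against 2, 5 and 1 cells at the other days. The days of the stages overlapped (-0.85 ± 0.45, SE; limma, adjusted p = 0.413).

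None of the tested genes of NODAL (11), FGF (17) or BMP signalling (11) was called with limma, and at an unadjusted p under 0.05 there were 4, 6 and 4, beside 15.2% of all tested genes. Among NODAL genes, the ligand NODAL averaged 29.5, 7.24, 11.8 and 10.5 RPM, its co-receptor TDGF1 447, 702, 569 and 335 RPM, and FST, which binds activin, 74.65, 83.7, 141.8 and 189.0 RPM. Among FGF genes, all 6 at an unadjusted p under 0.05 were lower in late cells, beside 6.72% of all tested genes. ETV4, a target of FGF signalling, averaged 186.0, 153.7, 60.6 and 96.9 RPM and lay just above the threshold (-1.13 ± 0.28, SE; limma, adjusted p = 0.0544). SPRY4, a feedback inhibitor, averaged 39.2, 77.7, 27.1 and 31.1 RPM, and DUSP6, a phosphatase of ERK, 20.1, 82.4, 19.9 and 20.1 RPM, so that both were highest at E14. BMP4 averaged 17.5, 9.19, 32.1 and 31.8 RPM (1.26 ± 0.38, SE; limma, adjusted p = 0.122). Without the 24 cells with other markers, which were chosen in part by FST itself, BMP4 and FST were called, with log2 changes of 2.0 and 1.3 (limma, adjusted p = 0.0388 and 0.0225).

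Of 25 measured genes of the primitive streak and mesoderm, 5 were tested and 20 did not pass the filter. The ligand WNT5B was called lower, beside 1.28% of all tested genes, and the other 4 had a log2 change above 0 at an unadjusted p under 0.05, beside 8.46%, but were not called. WNT5B passed the filter only through the early stage and MIXL1 only through the late stage, so both had to differ. HAND1, a factor of mesoderm and trophoblast, averaged 51.2, 0.11, 150.7 and 87.5 RPM, with a log2 change of 3.93 ± 1.15 (SE; limma, adjusted p = 0.112). EOMES averaged 11.6, 7.72, 29.5 and 29.4 RPM (limma, adjusted p = 0.05255) and MIXL1 2.25, 4.36, 11.4 and 10.6 RPM (limma, adjusted p = 0.173). The levels of EOMES were uneven, with 10 of 39 cells at E16 and 9 of 26 at E17 at 10 RPM or more and medians of 0 and 0.54 RPM. Without the 24 cells with other markers, which were chosen in part by EOMES itself, its log2 change was 4.25 and it was called (limma, adjusted p = 0.000486). Of 24 measured neural genes 6 were tested, and OTX2 and GBX2 were the ones called, beside 2.17% of all tested genes. Each of the called genes passed the filter only through the stage where it was high and had to differ. NES, an intermediate filament of neural progenitors, averaged 44.9, 66.2, 75.3 and 53.4 RPM (limma, adjusted p = 0.807).

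General cell state genes showed few calls. None of 21 tested genes of proliferation and none of 21 of oxidative phosphorylation was called with limma, and 3 of each had an unadjusted p under 0.05. Of 22 tested genes of glycolysis and hypoxia, 2 fell, beside 1.28% of all tested genes, and at an unadjusted p under 0.05 there were 3 higher and 3 lower. BNIP3, a mitophagy receptor and hypoxia target, averaged 918.7, 888, 387 and 249 RPM (-1.54 ± 0.23, SE; limma, adjusted p = 0.00463). HK1, a hexokinase, averaged 230.01, 159.1, 86.4 and 90.5 RPM (-1.10 ± 0.25, SE; limma, adjusted p = 0.0415). HK1 lost its call when any 1 of the 4 days was left out (limma, adjusted p = 0.079 to 0.25) and with edgeR (adjusted p = 0.0678), and BNIP3 without E13 and without E14 (limma, adjusted p = 0.067 and 0.076). None of 8 tested genes of stress and dissociation was called with limma, and 1 had an unadjusted p under 0.05.

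**Figure D4:**
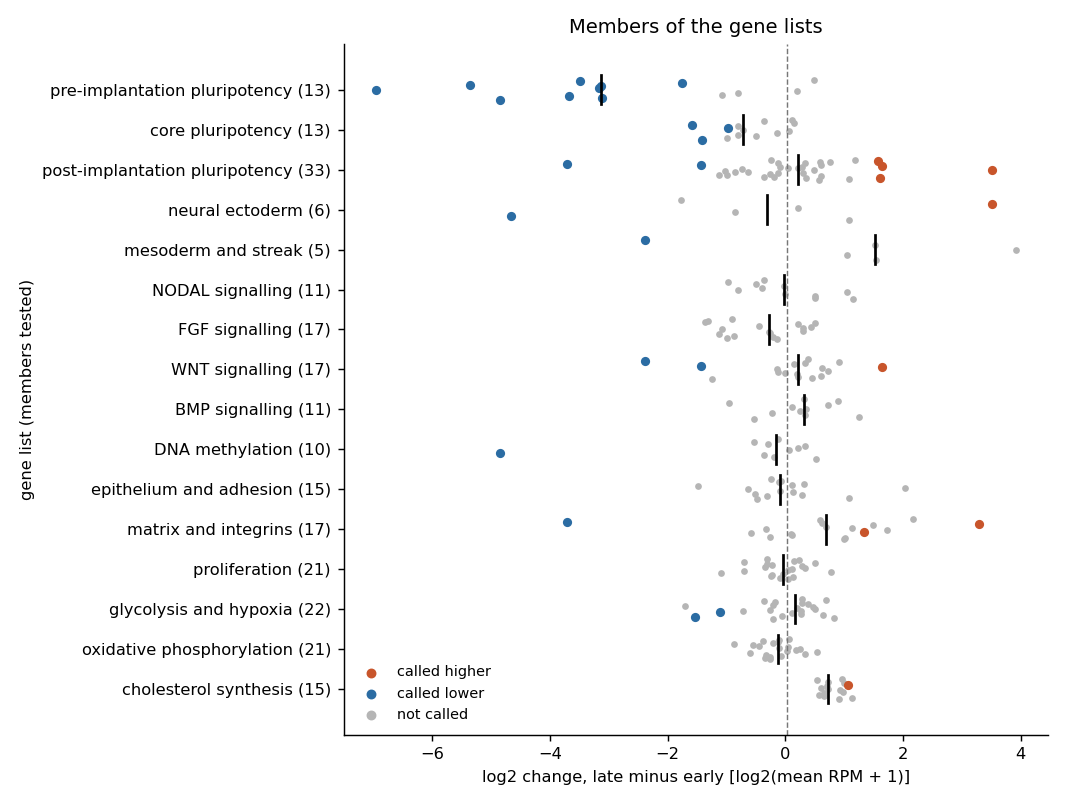
Log2 changes (late minus early) of the tested members of 16 gene lists, 1 row per list with the number tested. Points are genes, black marks are list medians and the dashed line is the median of all tested genes, 0.04. Of the 13 genes of the pre-implantation list, 6 passed the filter only through the early stage, and the cholesterol list lies wholly to the right of 0.

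The titles of the cells carry a code (MS and a number) whose meaning is not given in the labels, and the codes were unevenly spread over the days. Code MS118 held 21 cells at E13, 23 at E14, 13 at E16 and none at E17. In cells of MS118 alone, 180 of the 181 called genes had the same direction and 40 were also called. KHDC3L averaged 3409 RPM at E13, 1288 at E14 and 45.99 at E16 within this code, and DPPA5 1882, 1510 and 214.97 RPM. OTX2 averaged 0.44, 1.63 and 34.6 RPM, and ERBB2 69.6, 83.8 and 258 RPM. Without MS118, 178 of the 181 had the same direction, but 1 was called, KHDC3L (-6.67; limma, adjusted p = 0.0062). That comparison kept 10 cells at E13 and 2 at E14. With the code as a term in the fit, 180 had the same direction and 75 were also called. With edgeR on recovered reads, all 181 had the same direction and 89.5% were also called.

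The 4 E13 cells of code MS130 differed from the other 27 at that day in several of the named genes, a contrast looked at after values were seen. KHDC3L was 218.6 to 701 RPM in these 4 cells (mean 407) and had a mean of 2904 RPM in the other 27. NLRP7 averaged 13.2 against 296 RPM, and DPPA5 878 against 1728 RPM. SFRP1 averaged 916 against 187.3 RPM, ZIC2 227.9 against 44.05 RPM and OTX2 17.5 against 0.99 RPM. In these 6 genes the mean of the 4 cells lay on the late side of the other E13 cells, although 2 of the 4 held no OTX2 read and 1 held 65.4 RPM of SFRP1. SPP1, lower in late cells, averaged 763 RPM in the 4 cells against 326 RPM. A stricter measure was whether the 4-cell mean was nearer to the late mean than to the other E13 cells. It was so in 47.3% of called genes higher and 29.9% of those lower in late cells, against 53.4% of all tested genes. Called genes were chosen for a gap between the stages, so the 53.4% is not a like baseline. These shares do not show how general the shift was. Code MS130 also held 10 CMK6 and 7 CMK9 ESCs. Without MS130 all 181 genes had the same direction and 1.82% of the genes tested were called.

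Set beside other pluripotent cells, the early levels of the falling genes were closer to those before implantation. KHDC3L averaged 483 RPM at E06 and 3769, 4419 and 4572 at E07, E08 and E09, and at most 5.40 RPM in the 3 ESC lines. NLRP7 averaged 4104, 3485, 2523 and 2468 RPM from E06 to E09, and at most 5.93 RPM in ESC lines. DPPA5 averaged 407 to 2300 RPM at E06 to E09 and at most 1.28 RPM in ESC lines, below the 86.2 RPM of E17. NANOG was 1680 to 2066 RPM at E07 to E09 and 151.8 to 388 RPM in ESC lines. The mean before implantation was nearer to the early than to the late stage for 73.8% of the genes lower in late cells. This share was 81.1% for those higher, against 58.7% of all tested genes. Called genes were chosen for a gap between the stages, so the 58.7% is not a like baseline. The shares also include the called genes that passed the filter only through the stage where they were high.

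ESC levels were in turn nearer to the late stage for 76.6% of the genes that fell and 67.6% of those that rose. Among all tested genes this share was 54.7%, which is not a like baseline for the same reason, and the same filtered genes are included. SFRP1 averaged 1.85 to 8.31 RPM at E06 to E09 and 987 to 1476 RPM in ESC lines, and HMGA2 at most 0.08 RPM before implantation and 32.2 to 292 RPM in ESC lines. ERBB2 averaged 4.73 to 16.2 RPM before implantation and 197 to 314 RPM in ESC lines. In ESC lines 25 of the genes that fell and 24 of those that rose were nearer to the early stage. Examples were SPP1, at 563 to 3690 RPM in ESC lines but 22.7 RPM at E17, and GBX2, at 17.4 to 71.7 RPM in ESC lines but 0.91 RPM at E17. Others were SFRP2, at 194 to 498 RPM in ESC lines, and RGS5, which rose but was at 12.2 to 13.7 RPM there. SPP1 was also low before implantation (0 to 163.03 RPM), so that its early post-implantation level was a local maximum among embryo days. CHD7 and OTX2 were lower at E08 (11.96 and 0.23 RPM) than at E06 (87.8 and 31.9 RPM) and than at E16.

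Within a day, correlations across cells were weaker at late days for some pairs of falling genes. KHDC3L and DPPA5 had a Spearman rho of 0.87 over the 31 cells of E13, 0.39 over the 25 of E14, 0.19 over the 39 of E16 and 0.12 over the 26 of E17. KHDC3L and NLRP7 had 0.51, 0.47, 0.25 and -0.16, and KHDC3L and OOEP 0.36, 0.55, 0.20 and 0.39. DPPA5 and HMGA2, which rose, had -0.41, -0.30, -0.31 and -0.36. The cells of a day share their title codes in part, the 4 MS130 cells among them, and at late days KHDC3L was near the level of single reads.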

How the data were processed

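Single-cell values were used as deposited, as RPM per gene, which the authors made from reads trimmed, mapped and counted with cutadapt 1.3, TopHat 1.4.1 and Cufflinks 2.2.0, per the submitters' processing notes. The assembly being not given in the sources used here, positions and sequences are left out. The table held 26018 genes and 605 cells, all matched to labels by name. Of the gene IDs, 20272 were found in the RefSeq table, and 673 LOC names were replaced by its symbols.

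Gated cells were averaged by day. Limma 3.58.1 (R 4.3.3, trended eBayes, Benjamini-Hochberg adjustment, threshold 0.05) compared 2 late with 2 early days on log2(mean RPM + 1), so that folds of low genes are understated. Genes needed a day mean of 10 RPM in 2 of 4 days. Data of 8353 genes were simulated for this comparison with independent normal noise and the spreads shuffled between genes. Of 100 genes changed by 2 on the log2 scale 49 were called, and of 100 changed by 4 there were 84, with 4 false calls. No effect of title code was simulated, so the false calls do not measure how reliable the calls in the data are.

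The RPM steps gave whole reads for 99.83% of values above 0 (within 0.1 read), and edgeR 4.0.16 on these reads, summed by day over the 109 gated cells that allowed it, called 193 genes. Shares of called genes are given where they stand for counts.

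Named genes were the 12 per direction with the largest change among called genes with days that did not overlap and 50 RPM or more in the higher stage, the label markers DPPA5, SFRP1, USP44 and HESX1, called members of 26 gene lists, and members needed to describe a list. The members and lists were chosen with earlier results of these data known. Sex-linked genes were not analysed here. Alternatives covered the pseudocount, filter, summary over cells, scaling, gate, depth, days, title codes, cells with other markers, groups in the fit and the test.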

Additional observations from a re-analysis of the deposited data

How the results depend on the processing

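Of 967 values of the 46 named called genes under the alternatives, 965 kept their direction. Of all tested genes 2.17% were called with limma, and this share was between 1.82% and 2.63% under 9 alternatives and with 1 day left out it was 0.398% to 1.94% (32 genes without E14, 53 without E13, 83 without E17). With a filter of 50 RPM it was 3.41% (45 higher and 71 lower), with means of log2 values over cells 3.9% (326 genes), with medians over cells 0.012% (1 gene) and with a spread shared with other groups 0.0958% (8 genes, all lower). With no filter limma called 0 of 21384 genes, with 1993 at an unadjusted p under 0.05, while edgeR on recovered reads called 193 of the filtered genes. Units of day and title code gave 1.41% (45 higher and 73 lower), and 1.26% with the code as a term (42 and 63). Alternatives chosen after seeing the data left out MS130 or the highest cell of each gene and day, or split the cells by MS118, and gave 0.587% in MS118 alone (49 genes) and 0.012% without it (1 gene). Log2 changes crossed 0 for LUM (0 with medians) and PRDM14 (0.258 with the code term) among called genes. Among genes not called, HESX1 was -1.76 to 0.0626 with 1 day left out, 0.452 with the code term and 0.183 without MS118. NODAL was -1.33 to 0.557 with 1 day left out, 0.262 with the looser gate, 0.602 with medians and 0.719 without MS118. TDGF1 was -0.741 to 0.0219 with 1 day left out, 0.0864 by day and code and 0.246 with the code term. DNMT3B was 0.116 in MS118 alone, 0.1 without MS118, 0.00463 by day and code and 0.439 with the code term. LIN28A was -0.0788 in MS118 alone and -0.0356 without it, SALL4 -0.062 and EOMES -0.639 without MS118, and DUSP6 0.0233 with the code term. The cause was not tested. In single cells, levels near 1 read set the limit for genes such as KHDC3L at late days.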

Other observations

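Of 17 measured genes of cholesterol synthesis 15 were tested and all 15 had a log2 change above 0, with a median of 0.73 against 0.04 for all tested genes. At an unadjusted p under 0.05 there were 12, beside 8.46% of all tested genes in this direction, and 1 was called higher, beside 0.886% of all tested genes. This was MSMO1, a sterol oxidase, with 166.5, 153.8, 304 and 376 RPM at E13, E14, E16 and E17 (1.07 ± 0.22, SE; limma, adjusted p = 0.0231). Its call was lost without E13, without E14 and without E17 (limma, adjusted p = 0.11, 0.17 and 0.23). HMGCS1, which makes HMG-CoA, averaged 164.1, 211.3, 512 and 247 RPM. SQLE, the squalene epoxidase, averaged 52.4, 68.4, 108.03 and 128.4 RPM. The days of the stages did not overlap for either gene, as for 45.8% of all tested genes. The limma adjusted p-values were 0.157 and 0.0933 in that order. FASN, the fatty acid synthase, was chosen after its values were seen, and averaged 103.1 and 104.5 RPM early and 251.1 and 304 late (1.403 ± 0.23, SE; limma, adjusted p = 0.00687). It lost its call without the same days (limma, adjusted p = 0.061, 0.071 and 0.072).

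A few further falls were chosen after their values were seen. The histone genes H2AC6 and H2BC12 averaged 62.01, 89.3, 17.8 and 12.97 RPM and 38.5, 76.02, 15.1 and 11.5 RPM, beside the linker histone H1-2 (-2.22 and -1.96 on the log2 scale; limma, adjusted p = 0.003865 and 0.0162). Both calls were lost without E14 (limma, adjusted p = 0.079 and 0.19), and that of H2BC12 without E17 (limma, adjusted p = 0.083). CD9, a tetraspanin of the cell surface, averaged 509, 606, 164.6 and 133.3 RPM (limma, adjusted p = 0.00085), and TRIML2 averaged 202.4, 144.1, 45.5 and 38.9 RPM (limma, adjusted p = 0.00222).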
